A study of Rattus norvegicus with 12 samples.

Results

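The insulin-like growth factor (IGF) axis was followed here through 10 genes. They were the ligands Igf1 and Igf2, the receptors Igf1r and Igf2r, and the binding proteins Igfbp2, Igfbp3, Igfbp4, Igfbp5, Igfbp6 and Igfbp7. The genes were chosen by name and found by their rat Entrez identifiers, so that 10 of the 16511 genes in the count table were followed and none was missing. By the labels and the design text, read counts came from 12 snap-frozen mammary glands of rats at PND21, each from another litter, and strain (SD) and sex (female) are from the paper. The paper instead describes its RNA-seq as made from microdissected epithelia of HBF glands with and without BPA. The labels were followed here. Markers of fat cells and fibroblasts, given below, were counted in every library, as whole glands would give, whereas the difference in the groups was not settled. In the HBF group (n = 6) the dams had been fed a high-butterfat diet, which the labels abbreviate HFB, and in the control group (n = 6) they had been fed the control AIN diet. The labels call the exposure prenatal and do not name BPA. The label texts and the paper do not give the same start and end of the diets, and the window that applies to these glands was not settled. Libraries are named by diet and library number, HBF 1 to HBF 6 and control 7 to control 11 and control 14.

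Total counts per library lay between 2320267 and 2944680. Levels are given as CPM, the counts of a gene relative to the library total after scaling by TMM factors. A limit of 3 counts, taken as the lowest level that could be detected, corresponded to between 0.944 and 1.30 CPM after this scaling. This limit covers counting error only. Transcript lengths were not used here, so where the gene with most counts in a list is named, this is no ranking of transcript numbers.

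Both IGF ligands are secreted growth factors that act through the Igf1r receptor, a tyrosine kinase, whereas Igf2r binds Igf2 and carries it to lysosomes. The binding proteins hold IGFs in the extracellular space and can block or prolong their action, and Igfbp7 binds them only weakly. In the mammary gland, stromal Igf1 made in response to growth hormone is known to be needed for the growth of terminal end buds and ducts.

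Cell type markers showed that 2 libraries stood apart from the other 10. A score for each cell type was the mean log2 CPM of its marker genes. The adipocyte score was 9.26 in HBF 6 and 9.32 in control 14, and it lay between 10.7 and 11.3 in the other libraries. The fibroblast score was lowest in the same libraries, at 9.59 in HBF 6 and 9.42 in control 14, and higher in every other library. Their lymphoid scores were 6.45 and 6.64, against at most 4.63 in HBF 1, the next library. Their mural scores were also the highest, at 6.24 and 6.74, against 5.66 in control 7, the next. The summed endothelial markers were highest there too, at 480 and 516 CPM, against 269 CPM in control 9. By endothelial score, however, HBF 6 (5.64) was below control 9 (5.75) and control 11 (5.69). Along the first principal component of the genes tested, which held 57.5% of the variance, HBF 6 was at 102 and control 14 at 68.5. HBF 5 was at 28.5, and the remaining libraries were between -31.5 and -16.6. Relations that rest on HBF 6 and control 14 are therefore given with and without them. Tallies of direction by point estimate are given over all 12 libraries only.

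All 8 adipocyte markers were counted in every library, with most counts from Fabp4, and their summed level was 19000 to 38700 CPM with HBF (median 35900) and 15300 to 40500 CPM with the control diet (median 34600). All 8 fibroblast markers were also counted in every library, with most counts from Col3a1, with sums of 25200 to 51200 CPM (median 39500) and 23700 to 54400 CPM (median 44700). Of the 8 epithelial markers matched, 7 were counted in every library and Cldn3 had 0 counts throughout. Krt8 had most counts among them, and the epithelial sum was 118 to 673 CPM with HBF (median 286) and 191 to 667 CPM with the control diet (median 432). In bulk tissue, fewer cells of a type and less RNA per cell cannot be told apart.

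No IGF axis gene passed an adjusted p of 0.05 between the diets in edgeR's quasi-likelihood test, and neither did any of the 9382 genes tested (0.0%). The count was also 0 of the IGF axis genes in DESeq2 and in limma-voom. At an unadjusted p under 0.05 edgeR called 0 IGF axis genes, against 220 of all genes (2.34%), DESeq2 called 0, against 2.92% of the genes it tested, and limma-voom called 1, Igfbp2, against 6.53%. The rule of an unadjusted p under 0.05 with a fold change above 2 called 0 of them in edgeR, against 0.117% of all genes. The 2 diet groups overlapped in CPM for each of the 9 IGF axis genes tested, as they did for all but 0.107% of the genes. By point estimate 7 of these 9 were lower and 2 higher with HBF, with a median log2 fold change of -0.14. Over all genes tested the median was 0.0002, with about as many lower as higher.

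**Figure D1:**
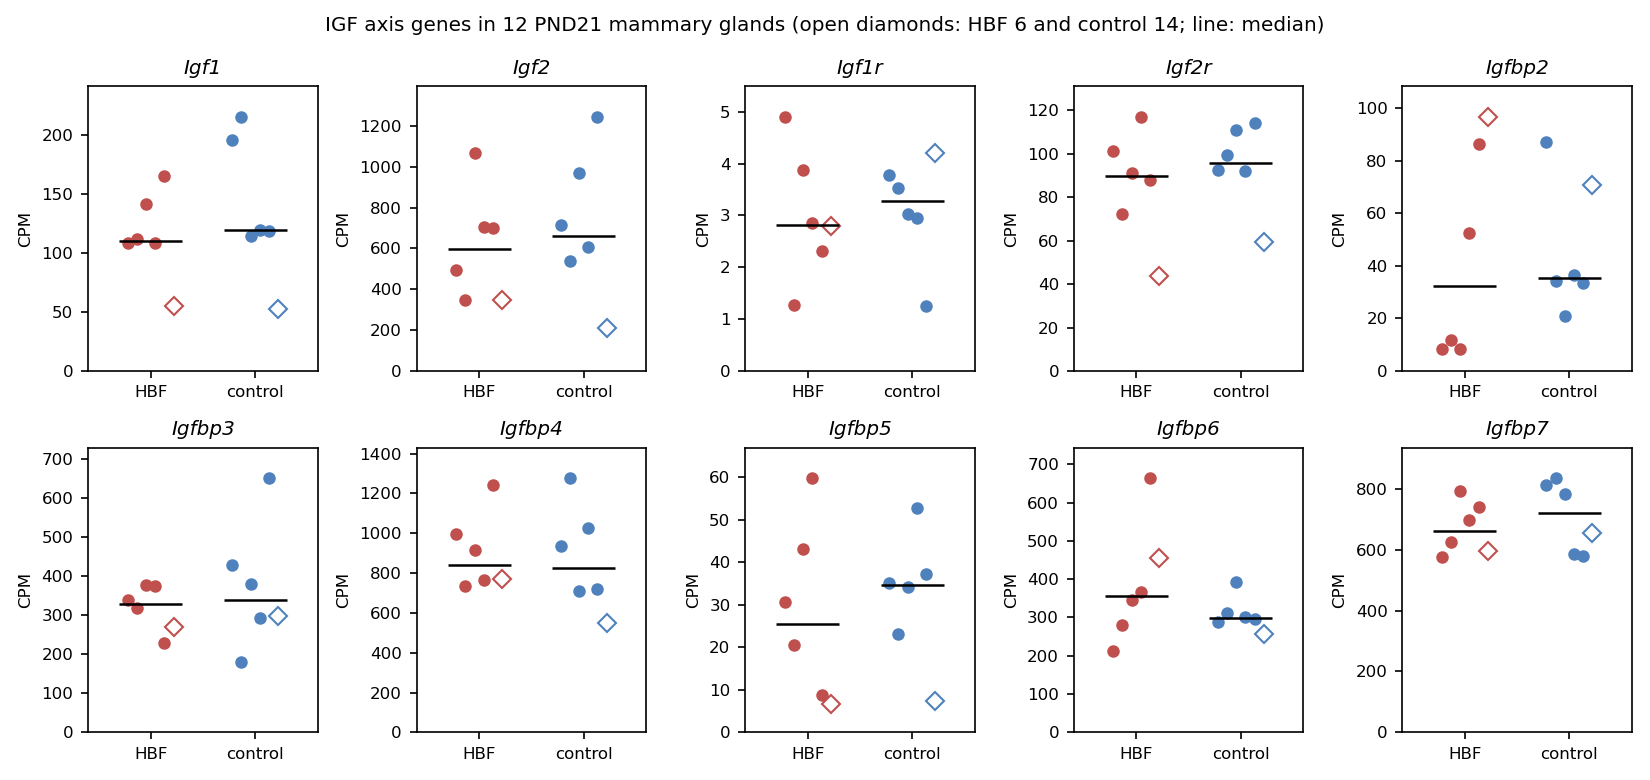
Level of each IGF axis gene (CPM, linear axis from 0) in the 6 HBF and 6 control libraries, with 1 point per library and a line at the median. HBF 6 and control 14 are open diamonds, and they hold the lowest Igf1 levels at 55.0 and 52.2 CPM; the diets overlap in every panel.

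Igf1, the ligand that mediates much of the effect of growth hormone, ranged from 55.0 to 165 CPM with HBF (median 110.2). On the control diet its range was 52.2 to 216 CPM (median 119). The lowest library of each diet was the one that stood apart, and control 7 and control 8 were the highest of all, so the diets overlapped over most of their range. Mean and SD were 115 ± 37.1 CPM for the 6 HBF glands and 136 ± 60.03 CPM for the 6 control glands. The log2 fold change was -0.24 (standard error 0.32, adjusted p = 0.999 in edgeR). Its 95% confidence interval ran from 0.527-fold to 1.35-fold. With 1 library left out the log2 fold change was between -0.41 and -0.06.

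Igf2, a fetal growth factor expressed from the paternal allele in most tissues, lay between 345 and 1066 CPM with HBF (median 596). With the control diet it lay between 212 and 1246 CPM (median 661). Control 11 and HBF 3 were highest and control 14 was lowest, and HBF 6 and HBF 2 were nearly level at 345 and 347 CPM. The spread within each diet was larger than the difference between the diets. Mean and SD of Igf2 were 609 ± 274.5 CPM for HBF and 715 ± 358 CPM for control (n = 6 each). Its log2 fold change was -0.23 (standard error 0.38, adjusted p = 0.999). The interval of the fold was 0.481 to 1.51.

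Igf1r was close to the limit of detection. It had between 3 and 12 counts per library and 97 counts in all, and it was the only IGF axis gene that did not pass the filter on low counts. Levels were 1.28 to 4.91 CPM with HBF (median 2.82) and 1.26 to 4.20 CPM with the control diet (median 3.28). HBF 1 was highest and control 11 lowest, and the diets overlapped almost fully. Mean and SD were 3.003 ± 1.26 CPM for HBF and 3.13 ± 1.03 CPM for control (n = 6 each), and an exact permutation test, two-sided, gave p = 0.848. Without the filter edgeR gave a log2 fold change of -0.06 (standard error 0.38, adjusted p = 0.998).

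Igf2r, which clears Igf2, was at 43.9 to 117 CPM with HBF (median 89.6). It was at 59.2 to 114 CPM with the control diet (median 96.0). HBF 6 and control 14 were the lowest of their diets, and without them the libraries lay between 72.4 and 117 CPM. Mean and SD were 85.7 ± 25.3 CPM for HBF and 94.7 ± 19.7 CPM for control (n = 6 each). The log2 fold change was -0.14 (standard error 0.22, adjusted p = 0.999), with an interval of the fold from 0.653 to 1.26.

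Among the binding proteins, Igfbp2 varied most between libraries. In the HBF group its levels fell into 2 sets, with 8.18, 11.9 and 8.53 CPM in HBF 1, HBF 2 and HBF 3 and 52.7, 86.6 and 96.9 CPM in HBF 4, HBF 5 and HBF 6. In the control group it ran from 20.8 CPM in control 9 to 87.2 CPM in control 7, with a median of 35.4. The 3 lowest libraries and the highest were thus all HBF libraries, 11.8-fold apart from lowest to highest, and the control libraries lay between them. The standard deviation of log2 CPM over the 12 libraries was 1.25, higher than that of 96.4% of the genes tested, whose median was 0.4. The log2 fold change between the diets was -0.10 (standard error 0.62, adjusted p = 0.999), so that the interval of the fold, 0.371 to 2.35, leaves more than a doubling or halving possible. With HBF 6 and control 14 left out, the log2 fold change was -0.34 (standard error 0.61, adjusted p = 0.952). Leaving out 1 library at a time gave values from -0.50 to 0.18, so its direction was not stable. In limma-voom with sample quality weights the log2 fold change was -1.31 (unadjusted p = 0.0323, adjusted p = 0.749). Over all alternatives the adjusted p of an IGF axis gene was at least 0.566.

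Igfbp5, which binds to extracellular matrix and is known to rise in mammary involution, showed the next widest spread. It was at 6.78 to 59.8 CPM with HBF (median 25.6) and at 7.36 to 52.8 CPM with the control diet (median 34.7). The low libraries were HBF 6, control 14 and HBF 5 at 6.78, 7.36 and 8.85 CPM, whereas the remaining libraries were at 20.45 CPM or more. These low values rest on 17, 21 and 23 counts. The standard deviation of log2 CPM was 1.05, above that of 93.0% of the genes tested. With a log2 fold change of -0.16 (standard error 0.52, adjusted p = 0.999) the diets overlapped throughout.

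Igfbp3, the main carrier of IGFs in the circulation, ranged from 230 to 378 CPM with HBF (median 329) and from 181 to 651 CPM with the control diet (median 338). Control 11 was highest and control 8 lowest, and every HBF library lay between them. The log2 fold change was -0.22 (standard error 0.26, adjusted p = 0.999), and it was 0.01 without control 11. Igfbp4 was at 737 to 1243 CPM with HBF (median 841.5) and at 552 to 1277 CPM with the control diet (median 827). Control 8 and HBF 5 were highest and control 14 lowest, and the log2 fold change was 0.06 (standard error 0.21).

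Igfbp6, which prefers Igf2 over Igf1, had the smallest unadjusted p of the IGF axis genes. It lay between 213 and 664 CPM with HBF (median 357), and between 257 and 394 CPM with the control diet (median 298). HBF 5 and HBF 6 exceeded every control library and HBF 1 was below all of them, with 4 HBF libraries in all over the median of the control diet. Mean and SD were 388 ± 158 CPM for HBF and 308 ± 45.9 CPM for control (n = 6 each). The log2 fold change was 0.33 (standard error 0.23), with an unadjusted p of 0.177 and an adjusted p of 0.999 in edgeR. Without HBF 5 the log2 fold change was 0.11, and without HBF 1 it was 0.46, with an unadjusted p of 0.0489 and an adjusted p of 0.981.

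Igfbp7, a matrix and vessel protein related to the other binding proteins, was the steadiest of the IGF axis genes. Its levels were 575 to 793 CPM with HBF (median 660.5) and 578 to 835 CPM with the control diet (median 719). The highest library was only 1.45-fold above the lowest, HBF 6 and control 14 were inside the range of the others, and its standard deviation of log2 CPM, 0.207, was above that of 9.26% of the genes tested. The log2 fold change was -0.08 (standard error 0.14, adjusted p = 0.999). Its interval, 0.763-fold to 1.18-fold, was the narrowest among the IGF axis genes tested.

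**Figure D2:**
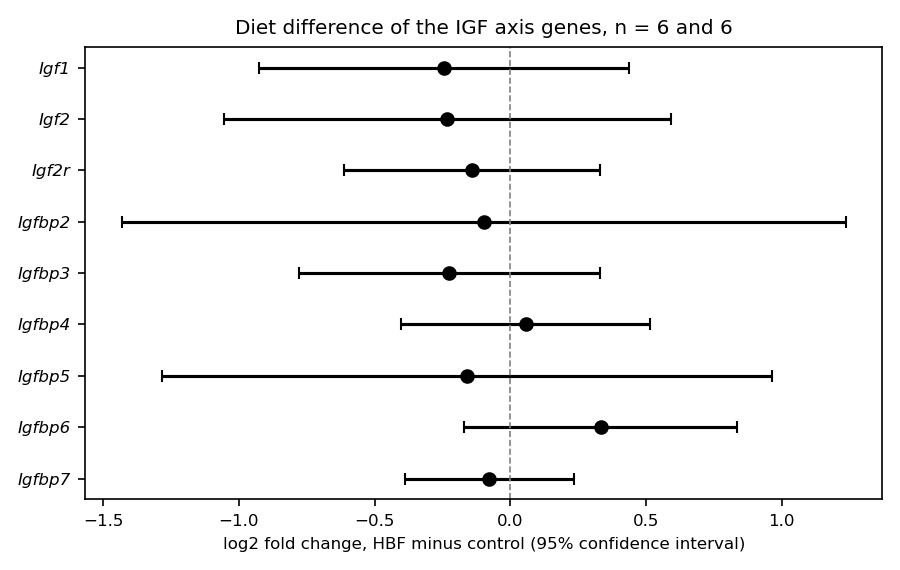
Log2 fold change of 9 IGF axis genes, HBF minus control, with 95% confidence intervals from edgeR (n = 6 per diet). Every interval includes 0; it is widest for Igfbp2, from -1.43 to 1.24, and narrowest for Igfbp7, from -0.39 to 0.23.

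The levels were next set against the cell type scores, to describe how the IGF axis genes varied with the make-up of the glands. For 9 genes and 9 scores there were 81 relations over the 12 libraries. By Pearson's r 10 of them passed an adjusted p of 0.05 (6 positive and 4 negative), and by Spearman's rho only 1 did, that of Igfbp2 and the epithelial score. When HBF 6 and control 14 were left out, 1 relation passed by Pearson's r. Some others grew in size without passing. The r of Igf2r and the endothelial score changed sign, from -0.23 to 0.80 (unadjusted permutation p = 0.00414). Without HBF 5 and control 14, the farthest libraries on that score, it was 0.09 (permutation p = 0.857). Within the diets it was -0.19 for HBF and -0.52 for control. The r of Igf2 and the skeletal muscle score went from 0.38 to 0.79 (unadjusted permutation p = 0.00603). Without HBF 1 and control 10, the farthest on that score, it was 0.49 (permutation p = 0.153). None of the 9 scores differed between the diets (two-sided exact permutation tests, adjusted p between 0.631 and 0.688).

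Igfbp2 followed the epithelial score closely, with r = 0.95 (permutation p = 2e-05, adjusted p = 0.00162) and rho = 0.89 (permutation p = 0.00033, adjusted p = 0.0267). Leaving out HBF 1 and HBF 2, the libraries farthest from the median score, gave r = 0.92, and leaving out HBF 6 and control 14 gave r = 0.94. Within the diets r was 0.98 over the HBF libraries and 0.85 over the control libraries. The libraries with low Igfbp2, HBF 1, HBF 2 and HBF 3, had epithelial scores of 3.12, 3.76 and 3.79, and only control 9, at 3.92, was also below 4.60. Each epithelial marker with counts was related to Igfbp2 in the same direction, from r = 0.67 for the basal keratin Krt14 to r = 0.95 for the luminal keratin Krt18. The genes whose pattern over the 12 libraries was most like that of Igfbp2 were Ppp1r1b (r = 0.96), Mia (r = 0.95) and Krt18 (r = 0.95). With the epithelial score as a covariate, the standard error of the Igfbp2 log2 fold change was 0.238, against 0.618 without it, and the log2 fold change was 0.07.

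Igfbp2 was also related to the mural score, with r = 0.78 (permutation p = 0.00283, adjusted p = 0.0255) and rho = 0.80 (permutation p = 0.0024, adjusted p = 0.0972). Without HBF 6 and control 14, the farthest libraries on this score, r was 0.82, and within the diets it was 0.86 for HBF and 0.69 for control. All 6 mural markers matched were counted in every library, with most counts from Tagln, and their sum was 141 to 1010 CPM with HBF (median 239) and 197 to 1150 CPM with the control diet (median 314). The markers were not alike. Cnn1 (r = 0.95), Myh11 (r = 0.81) and Tagln (r = 0.73), contractile genes that myoepithelial cells also express, followed Igfbp2 more closely than the pericyte genes Pdgfrb (r = 0.59), Notch3 (r = 0.23) and Rgs5 (r = 0.12). The part of epithelial or myoepithelial content in the spread of Igfbp2 was not tested.

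**Figure D3:**
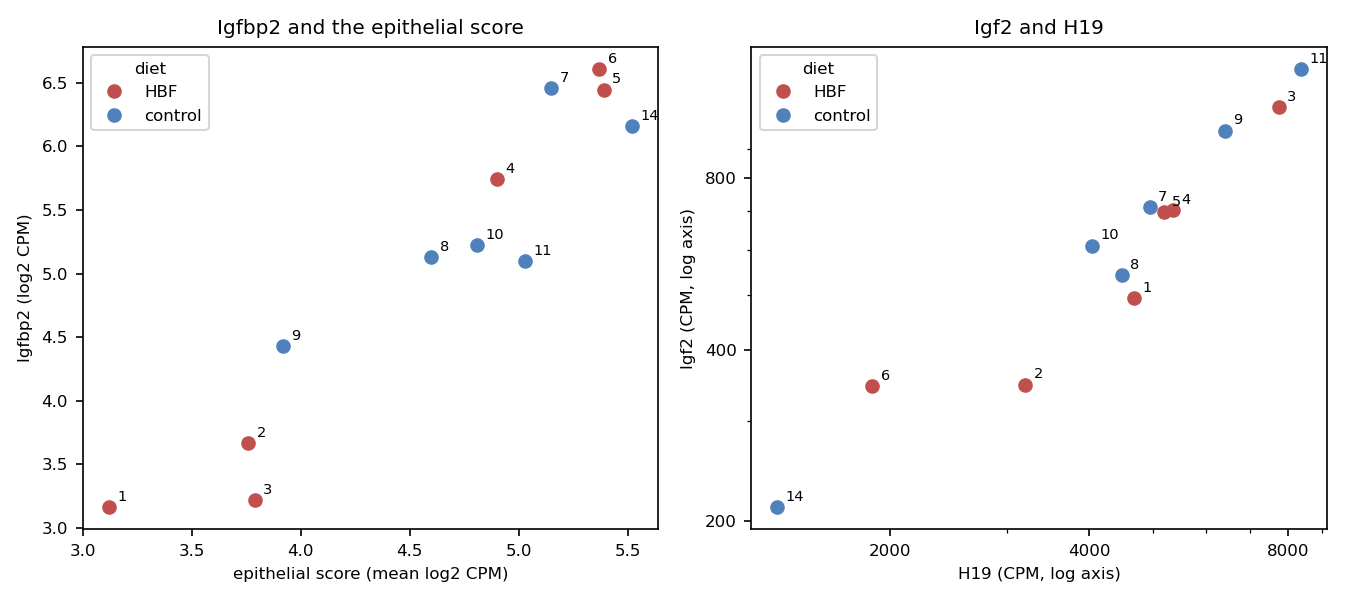
Left, Igfbp2 (log2 CPM) against the epithelial score (mean log2 CPM of the markers); right, Igf2 against H19 (CPM, both axes logarithmic). Each point is 1 library with its number, coloured by diet, and r over the 12 libraries is 0.95 on the left and 0.96 on the right.

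Igf1, Igf2 and Igf2r shared a pattern that rested on HBF 6 and control 14. With the fibroblast score r was 0.85 for Igf1, 0.82 for Igf2 and 0.85 for Igf2r (permutation p = 0.00234, 0.00087 and 0.00275, adjusted p = 0.0255 for each). The rho values were 0.68, 0.60 and 0.52 (permutation p = 0.0188, 0.0431 and 0.0834, adjusted p = 0.298, 0.388 and 0.483). Without HBF 6 and control 14, which lay apart from the rest and were the farthest from the median score, r was 0.36, 0.54 and 0.50 (permutation p = 0.316, 0.102 and 0.149). Within the HBF libraries r was 0.94, 0.70 and 0.88, and within the control libraries 0.79, 0.88 and 0.93, each of which includes a library that stood apart. The relation therefore could not be told from a difference between these 2 libraries and the other 10. By marker, r was lowest with Fbln1, at 0.32 for Igf1, 0.49 for Igf2 and 0.46 for Igf2r. It was highest at 0.83 (Col3a1 and Dcn), 0.81 (Dcn) and 0.90 (Col3a1). Without HBF 6 and control 14 it ran from -0.14 (Pdgfra) to 0.56 (Lum) for Igf1. It then ran from -0.18 (Dpt) to 0.57 (Dcn) for Igf2, and from -0.24 (Dpt) to 0.68 (Pdgfra) for Igf2r.

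The lymphoid score gave the mirror image. Its r was -0.81 with each of Igf1, Igf2 and Igf2r (permutation p = 0.00212, 0.00135 and 0.00263, adjusted p = 0.0255 for each), and rho was -0.56, -0.73 and -0.64 (permutation p = 0.0639, 0.00817 and 0.0301, adjusted p = 0.398, 0.193 and 0.349). With these libraries left out r was -0.38, -0.58 and -0.40 (permutation p = 0.269, 0.0813 and 0.253), and within the diets they were -0.79, -0.82 and -0.76 for HBF and -0.83, -0.82 and -0.89 for control. The summed level of the 7 lymphoid markers matched was 744 CPM in HBF 6 and 802 CPM in control 14, against a median of 48.4 CPM with HBF and 17.5 CPM with the control diet. Cd79b had most counts among them, and the other 6 had 0 counts in at least 1 library. The mural and endothelial sums were also highest in these libraries. The part of lymphoid tissue or of other cell types in their low Igf1, Igf2 and Igf2r was not tested.

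Igfbp5 was related to the adipocyte score (r = 0.77, permutation p = 0.00429, adjusted p = 0.0347, rho = 0.40, permutation p = 0.199, adjusted p = 0.803). Without HBF 6 and control 14, which formed a set of their own on this score, r was 0.28 (permutation p = 0.424), and within the diets it was 0.69 for HBF and 0.90 for control. The markers disagreed, with r from 0.68 to 0.84 for Lep, Cidec, Pparg, Adipoq, Lpl and Plin1, 0.45 for Fabp4 and -0.09 for Retn. Without HBF 6 and control 14 r was -0.63 for Fabp4, -0.60 for Retn and -0.06 for Lep, and between 0.05 and 0.66 for the other markers. HBF 5 had low Igfbp5 with an adipocyte score of 10.7, close to that of the other glands. Many genes shared the pattern of Igfbp5. Of the genes tested 19.6% had an r above 0.8 in size with it, against 17.1% for Igf2r, 6.69% for Igf1, 2.27% for Igf2 and 1.83% for Igfbp2. With HBF 6 and control 14 left out, these shares were 8.23% for Igfbp5, 1.17% for Igf2r, 0.480% for Igf1, 1.23% for Igf2 and 2.23% for Igfbp2, so that those of Igfbp5, Igf2r and Igf1 rested largely on these libraries. The share of Igfbp6 rose instead, from 1.75% to 6.89%. Those of Igfbp3, Igfbp4 and Igfbp7 also rose, from 0.0853%, 0.266% and 0.0213% to 0.65%, 0.544% and 0.352%. The cut of 0.8 was kept with fewer libraries, where an r of this size arises more often by chance. The shares that chance alone would give were not computed, so no conclusion is drawn from any rise in these shares. The genes nearest to Igfbp5 were Cdon (r = 0.98), Nfix (r = 0.97) and Gtf3c4 (r = 0.97), with r of 0.96, 0.94 and 0.95 without HBF 6 and control 14.

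Igfbp4 went against the endothelial score, with r = -0.82 (permutation p = 0.00136, adjusted p = 0.0255) and rho = -0.73 (permutation p = 0.00954, adjusted p = 0.193). Without HBF 5 and control 14, the farthest libraries, r was -0.60 (permutation p = 0.0648), without HBF 6 and control 14 it was -0.69 (permutation p = 0.0268), and within the diets it was -0.69 for HBF and -0.90 for control. All 5 endothelial markers matched were counted in every library, with most counts from Pecam1, and their sum was 165 to 480 CPM with HBF (median 197) and 167 to 516 CPM with the control diet (median 227). By marker, r with Igfbp4 was -0.72 for Emcn, -0.63 for Tie1, -0.56 for Pecam1, -0.48 for Tek and -0.23 for Cdh5, and without HBF 6 and control 14 it lay between -0.58 (Cdh5) and -0.25 (Pecam1). The largest r of Igfbp6 was with the macrophage score (r = 0.71, permutation p = 0.00992, adjusted p = 0.0656, rho = 0.58, permutation p = 0.0519, adjusted p = 0.398). It was 0.48 without HBF 5 and control 14, the farthest libraries, 0.67 without HBF 6 and control 14, 0.91 within HBF and 0.43 within control. By marker, r with Igfbp6 was 0.78 to 0.83 for the complement genes C1qa, C1qb and C1qc, 0.51 for Csf1r, 0.38 for Cd68, 0.34 for Adgre1 and -0.15 for Mrc1. The macrophage sum, with most counts from C1qa and all 7 markers counted in every library, was 704 to 1200 CPM with HBF (median 808) and 630 to 865 CPM with the control diet (median 683). The genes nearest to Igfbp6 were Timp2 (r = 0.97), Trem2 (r = 0.95) and Ctdsp1 (r = 0.94).

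No relation of Igfbp3 or Igfbp7 to a score passed the threshold over the 12 libraries. The largest r in size was 0.29 for Igfbp3, with the endothelial score (permutation p = 0.363, rho = 0.38, permutation p = 0.228, adjusted p = 0.758 and 0.803). It was 0.37 without the 2 farthest libraries, HBF 5 and control 14, and 0.61 without HBF 6 and control 14 (permutation p = 0.0602), 0.50 within HBF and 0.18 within control. For Igfbp7 it was -0.43, with the lymphoid score (permutation p = 0.164, rho = -0.26, permutation p = 0.417, adjusted p = 0.439 and 0.887). This r was -0.36 without HBF 6 and control 14, -0.85 within HBF and -0.08 within control.

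**Figure D4:**
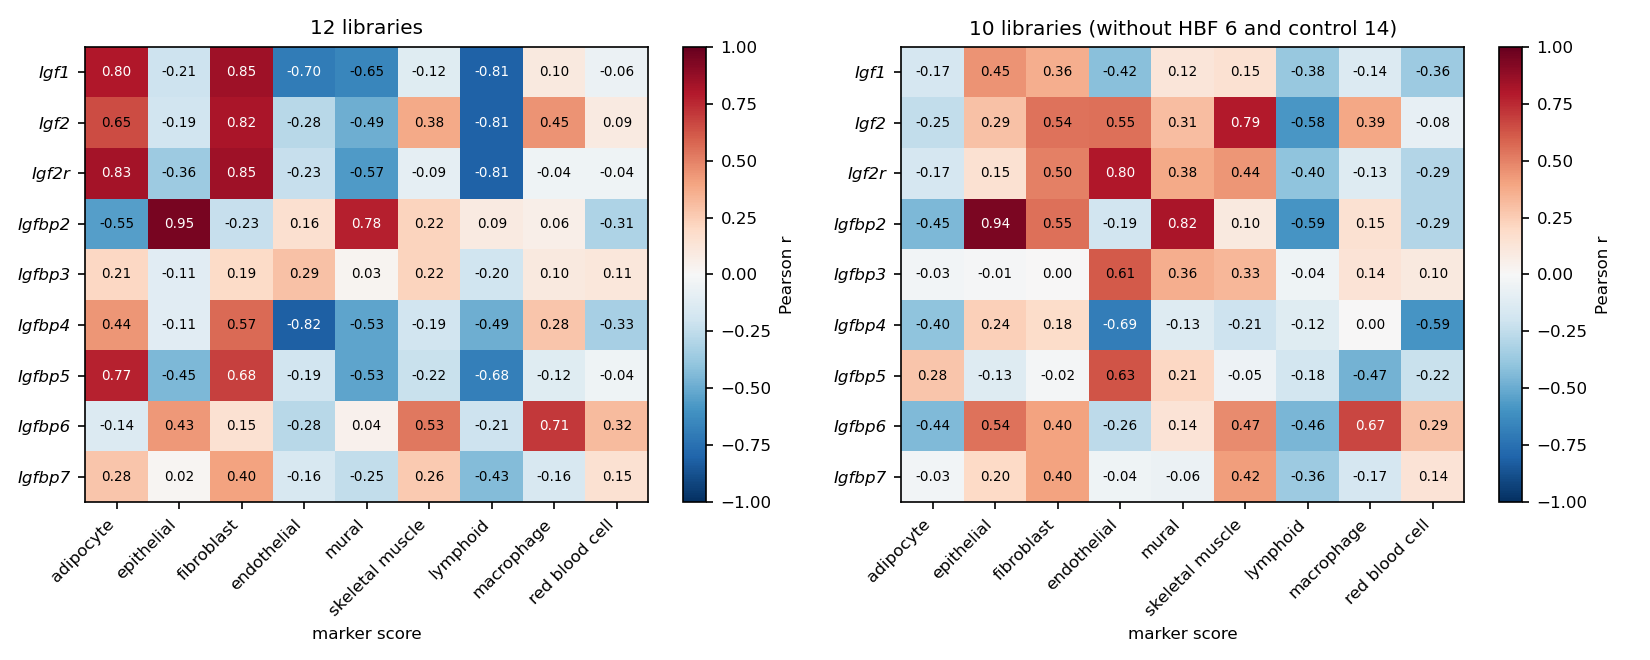
Pearson's r of the log2 CPM of 9 IGF axis genes with 9 marker scores, over all 12 libraries on the left and over 10 libraries without HBF 6 and control 14 on the right. Igfbp2 and the epithelial score stay at 0.95 and 0.94, whereas Igf1 and the fibroblast score go from 0.85 to 0.36 and Igfbp5 and the adipocyte score from 0.77 to 0.28.

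Among themselves the IGF axis genes tested formed 36 pairs. Of these 0 passed an adjusted p of 0.05 in the permutation test of Pearson's r, and 0 passed by rho. The 3 smallest p values belonged to Igf2r and Igfbp5 (r = 0.80, permutation p = 0.0025), Igf2 and Igf2r (r = 0.76, permutation p = 0.0039) and Igf1 and Igfbp4 (r = 0.75, permutation p = 0.00454), each with an adjusted p of 0.0545. Their rho values were 0.71, 0.64 and 0.66 (permutation p = 0.0129, 0.0274 and 0.0217, adjusted p = 0.189, 0.197 and 0.195). For the first pair r was 0.49 and for the next 0.61 without HBF 6 and control 14, the farthest libraries, and for Igf1 and Igfbp4 it was 0.69 without them and 0.49 without control 8 and control 14, the farthest for this pair. Within the diets r was 0.78, 0.65 and 0.64 for HBF and 0.82, 0.96 and 0.86 for control. Igfbp2 and Igfbp5, which are neighbouring genes on chromosome 9, had r = -0.46 (permutation p = 0.131, adjusted p = 0.363, rho = -0.31, permutation p = 0.319, adjusted p = 0.796). This r was -0.18 without HBF 6 and control 14, the farthest libraries, -0.59 within HBF and -0.42 within control.

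The gene most like Igf2 in its pattern was H19, a long noncoding RNA of the same imprinted domain that is expressed from the maternal allele. H19 was at 1880 to 7740 CPM with HBF (median 4930) and at 1350 to 8360 CPM with the control diet (median 4710). Control 11 and HBF 3 had the highest levels of both genes, and control 14 had the lowest of both. Over the 12 libraries r was 0.96 and rho 0.95. No p is given, since H19 is described here as the gene nearest to Igf2 of all genes tested. H19 was also on the list of imprinted growth genes, and its relation to Igf2 is among the 10 relations adjusted together below. Without HBF 6 and control 14, the farthest libraries, r was again 0.96, and it was 0.91 within HBF and 0.99 within control. There were 5.45 to 9.47 H19 counts per Igf2 count with HBF (median 7.52) and 6.40 to 8.29 with the control diet (median 6.67), and a two-sided test of the log2 ratio by exact permutation gave p = 0.294. The next genes most like Igf2 were Lpar1 (r = 0.93) and Flnc (r = 0.92).

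Of the other imprinted genes that passed the filter, Cdkn1c, a growth inhibitor expressed from the maternal allele, also followed Igf2 (r = 0.91, permutation p = 0.00012, adjusted p = 0.0006 over 10 relations chosen after the values had been seen, rho = 0.85, permutation p = 0.00101, adjusted p = 0.00505). It had r = 0.79 without HBF 6 and control 14, 0.87 within HBF and 0.94 within control. For Plagl1, a transcription factor, and Ndn the r of 0.72 and 0.70 (permutation p = 0.00814 and 0.0116, adjusted p = 0.0253 for both, rho = 0.67 and 0.51, permutation p = 0.0207 and 0.093, adjusted p = 0.069 and 0.233) fell to 0.31 and 0.08 without those libraries, so that these relations rest on them. Within the diets r was 0.43 and 0.74 for HBF and 0.85 and 0.77 for control.

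Igf1 was set against the genes of growth hormone action in the same way. Its r with the growth hormone receptor Ghr was 0.76 (permutation p = 0.0127, adjusted p = 0.0253, rho = 0.21, permutation p = 0.515, adjusted p = 0.644), and without HBF 6 and control 14, the farthest libraries, it was -0.32 (permutation p = 0.381). Within the diets it was 0.73 for HBF and 0.81 for control. The relation rested on these libraries, in which Ghr was at 72.2 and 97.7 CPM. With Jak2, Stat5a, Stat5b, Socs2 and Cish, which carry or dampen the signal of the receptor, r lay between -0.28 and 0.39 and did not pass an adjusted p of 0.05. Without HBF 6 and control 14 these r lay between -0.63 (Stat5b, unadjusted permutation p = 0.0424) and 0.28 (Stat5a). Their sign changed for each of these genes but Cish. With the 2 farthest libraries for each gene left out instead, r lay between -0.12 (Stat5a) and 0.31 (Cish). For Stat5b it was then 0.22, without HBF 5 and HBF 6 (unadjusted permutation p = 0.508). The genes most like Igf1 were Gm2a (r = 0.95), Ppic (r = 0.94) and Elk1 (r = 0.91), with r of 0.82, 0.83 and 0.69 without HBF 6 and control 14. Those most like Igf2r were Fgfr1 (r = 0.96), Pgap2 (r = 0.95) and Pam (r = 0.95), with 0.81, 0.78 and 0.74. For Igfbp3 they were Egf, Actc1 and Tanc2 (r between 0.84 and 0.85), for Igfbp4 Lsamp, Cgref1 and Hsd3b7 (r between 0.86 and 0.94) and for Igfbp7 Sgsm3, Tmem115 and Ift57 (r between 0.77 and 0.80).

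Promoters are shown for Igf2, since it varied together with a second gene of its domain, and for the neighbours Igfbp2 and Igfbp5, whose levels were not related past the threshold. The windows run from 250 bases before to 50 after a start site (RefSeq, GRCr8), 5′ to 3′ on the strand of the gene. Capitals mark a GC box, which reads GGGCGG on 1 strand and CCGCCC on the other. The Igf2 windows are chr1:207253931-207254230 and chr1:207250426-207250725 on the minus strand, that of Igfbp2 is chr9:81864561-81864860 on the plus strand and that of Igfbp5 is chr9:81914138-81914437 on the minus strand.
Igf2, upstream start: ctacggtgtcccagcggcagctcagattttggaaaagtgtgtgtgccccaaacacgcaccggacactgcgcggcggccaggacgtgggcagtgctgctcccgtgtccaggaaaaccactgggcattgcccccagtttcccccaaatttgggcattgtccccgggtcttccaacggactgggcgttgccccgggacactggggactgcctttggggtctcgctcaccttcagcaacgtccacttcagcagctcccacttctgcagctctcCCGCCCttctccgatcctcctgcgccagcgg
Igf2, downstream start: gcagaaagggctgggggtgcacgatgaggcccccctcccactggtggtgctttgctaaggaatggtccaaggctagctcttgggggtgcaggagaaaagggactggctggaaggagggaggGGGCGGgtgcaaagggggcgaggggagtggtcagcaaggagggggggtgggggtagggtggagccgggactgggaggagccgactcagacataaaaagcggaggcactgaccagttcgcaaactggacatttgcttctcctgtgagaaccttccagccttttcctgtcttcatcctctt
Igfbp2: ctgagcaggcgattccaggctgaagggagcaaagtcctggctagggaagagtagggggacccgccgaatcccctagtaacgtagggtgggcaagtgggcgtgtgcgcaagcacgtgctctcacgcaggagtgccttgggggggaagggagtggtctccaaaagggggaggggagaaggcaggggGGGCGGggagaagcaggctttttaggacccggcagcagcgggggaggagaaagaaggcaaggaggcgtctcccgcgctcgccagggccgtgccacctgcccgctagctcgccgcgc
Igfbp5: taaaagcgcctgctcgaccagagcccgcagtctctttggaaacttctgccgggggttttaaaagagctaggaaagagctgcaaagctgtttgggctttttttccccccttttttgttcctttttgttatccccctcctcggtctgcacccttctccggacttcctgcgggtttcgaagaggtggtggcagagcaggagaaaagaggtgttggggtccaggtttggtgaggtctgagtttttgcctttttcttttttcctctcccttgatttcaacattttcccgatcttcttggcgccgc
A GC box was found in 6 of the 11 windows of the 10 IGF axis genes, and in 33.1% of the 33469 windows of the RefSeq table. It occurs in both Igf2 windows and in that of Igfbp2, not in that of Igfbp5. The letters TATAAA, or on the opposite strand TTTATA, were found in 1 of the 11, that of Igfbp4, and in 14.2% of all windows. CG dinucleotides numbered 19 and 7 in the Igf2 windows, 20 in that of Igfbp2 and 11 in that of Igfbp5, against a median of 7 over all windows. Igf1r had 50 of them, more than 99.3% of all windows. These matches describe the letters of the windows only.

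The other genes of the pathway were taken from lists by function. Of 68 such genes 59 were matched in the count table and 45 passed the filter. Of these 45, 0 passed an adjusted p of 0.05 and 0 an unadjusted p of 0.05 in edgeR, against 0.0% and 2.34% of all genes tested. By point estimate 32 were lower and 13 higher with HBF, with a median log2 fold change of -0.11, against 0.0002 over all genes tested.

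The largest list held 33 genes that pass the signal on from Igf1r, of which 32 were matched and tested. By point estimate 21 were lower and 11 higher with HBF, from -0.61 to 0.35 on the log2 scale. Hras, a small GTPase of the MAP kinase branch, had the smallest unadjusted p (0.103), with 104 to 175 CPM with HBF (median 131) and 101 to 132 CPM with the control diet (median 108), and a log2 fold change of 0.24 (standard error 0.14). Eif4ebp1, a translation repressor released by mTOR signalling, is named as the gene with most counts in the list. It was at 206 to 362 CPM with HBF (median 244) and 145 to 263 CPM with the control diet (median 217). Its log2 fold change was 0.26 (standard error 0.17, adjusted p = 0.999). HBF 6 was the lowest library for 18 of these 32 genes (56.2%) and control 14 for 7 (21.9%), against 25.2% and 12.9% of all genes tested. The lowest levels in this list thus fell mostly in the libraries that stood apart, and the part of these in the direction by point estimate was not tested.

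Of 8 genes of growth hormone action 6 were tested, 5 lower and 1 higher with HBF by point estimate. Socs2, a feedback inhibitor, had the smallest p (0.193), with 0.399 to 7.36 CPM with HBF (median 2.32) and 3.85 to 6.64 CPM with the control diet (median 4.36), and a log2 fold change of -0.65 (standard error 0.47). Socs2 had 124 counts in all, and its lowest level, in HBF 6, was 1 count and below the limit of 3 counts. Ghr, with most counts, was at 72.2 to 678 CPM and 97.7 to 664 CPM, with medians of 526 and 517 and a log2 fold change of -0.11 (standard error 0.48). Of 6 genes that cleave binding proteins or control their cleavage, 4 were matched and 2 tested. For Stc2, an inhibitor of Pappa, the diets overlapped, with medians of 7.85 CPM with HBF and 15.2 CPM with the control diet and a log2 fold change of -0.55 (standard error 0.44). Htra1, a protease, had -0.04 (standard error 0.17), with medians of 403 and 440 CPM. Pappa, the main protease of Igfbp4, had 5 counts in all libraries together.

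Among 8 relatives of the axis only the insulin receptor Insr passed the filter. It was at 1.59 to 16.4 CPM with HBF and 2.45 to 15.1 CPM with the control diet, with a log2 fold change of -0.33 (standard error 0.49). Ins1, Ins2 and Igfbp1 had 0 counts in every library, and Igfals, which holds IGFs in the circulating complex, had 6 counts in all. Igf2bp1, the only one of 3 genes for proteins that bind Igf2 mRNA to be matched, had 8 counts in all. Of 10 imprinted growth genes 6 were matched and 4 tested, 3 lower and 1 higher with HBF by point estimate. Plagl1 had the smallest p (0.252) and a log2 fold change of -0.40 (standard error 0.33), with medians of 134 and 185 CPM. H19, with most counts, had -0.08 (standard error 0.40).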

How the data were processed

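By the labels, RNA of 12 mammary glands was measured by RNA-seq, 6 glands per diet, each from 1 litter, so litters are the replicates. The authors deposited raw counts of reads per gene for 16511 Entrez identifiers, without normalization. The submitters' processing notes name bcl2fastq, CASAVA 1.8, TopHat, DESeq and the build rn4, with no role or order. The counting program, the annotation and the use of strand are not given in the sources used here. In the RefSeq gene table of GRCr8, genes overlap Igf2, Igf1r, Igf2r, Igfbp4 and Igfbp7, and without strand their reads could not be told apart from those of the overlapping genes. That table gave symbols for 16351 identifiers and was used for names and neighbours only. Promoters came from the RefSeq promoter table of GRCr8.

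The diets were compared with edgeR 4.0.16 under R 4.3.3 (TMM, filterByExpr, quasi-likelihood test, Benjamini-Hochberg adjustment over 9382 genes, threshold 0.05). Scores are mean log2 CPM with a prior count of 2. Correlations used Python 3.11.15 and scipy 1.17.1 with 100000 resamples, two-sided, which gives a smallest p of 1e-05. They were adjusted within each family of relations. Single values were compared by exact permutation over 924 assignments, with a smallest p of 0.0022. No 2 libraries of 1 diet agreed within sampling noise (in 30 pairs the lowest chi-square was 6.69 per degree of freedom).

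Alternatives were DESeq2 1.42.0, limma 3.58.1 (voom with sample quality weights), edgeR with upper-quartile factors or with the size factors of DESeq2, no filter, a filter that asks 10 counts of each library, the skeletal muscle, epithelial or lymphoid score as a covariate, a prior count of 0.5 and leaving out each library. After the data had been seen, the fibroblast or adipocyte score as a covariate, leaving out HBF 6 and control 14 together, and the relations of Igf1 to growth hormone genes and of Igf2 to imprinted genes were added. The members and lists were chosen with earlier results of these data known. Named were all 10 IGF axis genes, from each further list the gene with the smallest p and that with the highest mean CPM (most counts), the 3 genes with the highest r to each IGF axis gene, for each of them the score with the largest r in size, and every pair of them past the threshold. Other genes were named after their values had been seen. In a simulation on 9238 genes, edgeR found 39.8% of 2-fold and 87.5% of 4-fold changes, and 6 of 129 calls were false. The simulation drew each gene independently and had no libraries that stood apart, so these rates need not hold for these glands. Figures were drawn with matplotlib 3.10.9.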

Additional observations from a re-analysis of the deposited data

Results flagged for a closer look

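For the 10 IGF axis genes, the 9 scores and the total counts, Dixon's test asked within each diet whether an end library lay far from the next. Of these 40 sets of 6 libraries, 7 passed its critical value, where chance gives about 2, or about 1 in 20. None of the 7 was a level of an IGF axis gene, where levels were taken as CPM and scores as mean log2 CPM. With log2 CPM the lowest control library would also pass for Igf2r and for Igf1r. Igf2r was at 5.906 in control 14, against 6.534 in the next lowest and 6.842 in the highest control library. Igf1r was at 1.018 in control 11, against 1.895 in the next lowest and 2.313 in the highest. The adipocyte score was 9.255 in HBF 6, against 10.68 in the next lowest HBF library, and 9.317 in control 14, against 10.9. Control 14 also had a fibroblast score of 9.415, against 10.34, and a lymphoid score of 6.643, against 2.354 in the next highest control library. Control 9 had a red blood cell score of 9.175, against 7.565. The total was 2320267 counts in HBF 1, against 2629159 in the next lowest, and 2944680 in control 7, against 2570080 in the next highest. Igf1, Igf2, Igf2r and Igfbp5 were lowest of their diets in HBF 6 and control 14, and the part of the scores in these levels was not tested.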

How the results depend on the processing

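No IGF axis gene and no gene of the further lists passed an adjusted p of 0.05 in any of the 24 alternatives of the diet comparison, the 12 that each left out a library included, and no other gene tested did. The count of IGF axis genes at an unadjusted p under 0.05 was 1 with limma-voom (Igfbp2, also 1 with the fold above 2), where 6.53% of all genes tested passed (0.682% with the fold), and ranged from 0 to 1 when a library was left out, against 0. The 1 was Igfbp6 without HBF 1, where 4.01% of all genes passed. The log2 fold changes of Igf1, Igf2r, Igfbp6 and Igfbp7 kept their direction in these alternatives, though some came close to 0. Igf1 was at -0.01 with the fibroblast score as a covariate, against -0.24, Igf2r at -0.01 without HBF 6, against -0.14, Igfbp6 at 0.01 in limma-voom, against 0.33, and Igfbp7 at -0.02 without control 8, against -0.08. Others changed it. With the fibroblast score as a covariate, added after seeing the data, it was 0.10 for Igf2, 0.24 for Igfbp5, 0.08 for Insr, 0.01 for Htra1, 0.33 for Ghr and 0.26 for H19, and with the adipocyte score 0.09 for H19. With the epithelial score it was 0.07 for Igfbp2 and 0.01 for Htra1, and with the lymphoid score 0.03 for Igfbp5, 0.23 for Ghr and 0.17 for H19. In limma-voom it was -0.06 for Igfbp4 and 0.01 for Ghr, and without HBF 6 and control 14 it was -0.0021 for Igfbp4. Without these 2 libraries it kept its direction for Igf1 (-0.27), Igf2 (-0.30), Igf2r (-0.11) and Igfbp5 (-0.16). With single libraries left out it ran from -0.47 to 9.3e-05 for Igf2, -0.50 to 0.18 for Igfbp2, -0.36 to 0.01 for Igfbp3, -0.06 to 0.20 for Igfbp4, -0.53 to 0.05 for Igfbp5, -0.17 to 0.02 for Htra1, -0.32 to 0.11 for Ghr and -0.28 to 0.14 for H19. Without a change of direction it ran from -0.41 to -0.06 for Igf1, -0.25 to -0.01 for Igf2r, 0.11 to 0.46 for Igfbp6, -0.13 to -0.02 for Igfbp7, -0.66 to -0.11 for Insr, -0.81 to -0.38 for Stc2, -1.10 to -0.42 for Socs2, 0.15 to 0.30 for Hras, 0.14 to 0.34 for Eif4ebp1 and -0.59 to -0.26 for Plagl1. The Plagl1 log2 fold change was -0.62 in limma-voom and -0.03 with the fibroblast score, the Stc2 log2 fold change -0.87 and -0.25, and that of Eif4ebp1 0.10 in limma-voom.

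Relations of the IGF axis genes to the scores that passed numbered 1 without HBF 6 and control 14, against 10, and 1 to 11 with a library left out, with 1 without either of these 2. Pairs that passed numbered 0 to 1 and relations of Igf1 and Igf2 to the further genes, H19 included, 2 to 5, and these were 2 without both libraries. Without both, r of Igf1 was -0.32 with Ghr, -0.43 with Jak2, 0.28 with Stat5a, -0.63 with Stat5b and -0.02 with Socs2. With 1 library left out it ran from -0.17 to 0.48 for Jak2, -0.04 to 0.55 for Stat5b and -0.01 to 0.52 for Socs2. Igfbp2 and the epithelial score stayed between 0.94 and 0.96, and Igf2 and H19 between 0.93 and 0.97. Score differences between the diets ran from -0.387 to 0.185 (adipocyte), -0.144 to 0.835 (skeletal muscle) and -0.0237 to 1.61 (lymphoid) with a library left out. The causes were not tested. Libraries could not be paired, as no number occurs in both diets, so no paired analysis was possible. Among the 10 IGF axis genes, depth limits Igf1r most, at 3 to 12 counts per library.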
